A study of Homo sapiens with 2 samples.

Results

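The 3 TaqMan assays named miR-378, miR-422b and miR-422a were described in CL1-5 cells, an invasive human lung adenocarcinoma line, that carried either the empty vector pcDNA3.1 or an ANGPTL1 expression construct. They were found by name, after dropping the species prefix and the assay number, and are 3 of 365 miRNA assays on the card. ANGPTL1 is a secreted angiopoietin-like protein. Cells of both groups were selected with G418 for 4 weeks as stable lines, and the labels do not say whether a line was a pool or a clone. Each group had 1 RNA sample, so no difference below carries an error or a test, and each compares these 2 samples rather than the conditions. The assays were picked with their ratios already known, that is, selected on the log2 ratios of these same 2 samples, so ranks and counts past a threshold are given as descriptions. Below, vector cells or the control means the cells with empty pcDNA3.1.

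The miR-378a hairpin lies inside PPARGC1B, the gene of the transcriptional coactivator PGC-1beta, which drives mitochondrial biogenesis together with estrogen-related receptors. Dicer cuts such a hairpin into a duplex, from which either arm can enter an Argonaute protein while the other is mostly degraded. The 3′ arm is annotated as the more abundant product in most tissues. Both arms are known for restraining oxidative metabolism in mice, and in tumour lines miR-378 has been linked to survival and angiogenesis through SUFU and TUSC2. miR-422a is a close relative of the 3′ arm, and both are known to repress CYP7A1, the rate-limiting enzyme of bile acid synthesis. The older names hide these relations: the assay called miR-422b reads the 3′ arm of the hairpin whose 5′ arm was then called miR-378. The deposited files give no sequences, so each assay was matched to RefSeq (GRCh38.p14) through the later names, and all 3 matched.

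The mature sequences are shown because they set which of the RNAs share a seed and how alike they are. Capitals mark the seed, bases 2 to 8 from the 5′ end.
miR-378 (hsa-miR-378a-5p): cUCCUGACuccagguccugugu
miR-422b (hsa-miR-378a-3p): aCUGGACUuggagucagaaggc
miR-422a (hsa-miR-422a): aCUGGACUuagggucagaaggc
The assays fall into 2 seed groups: miR-422b and miR-422a share CUGGACU, and miR-378 has UCCUGAC. Of 2370 mature names in the RefSeq table, 7 carry the first seed and 1 the other. In that table, the 5 further names with the first seed are miR-378b, miR-378c, miR-378f, miR-378h and miR-378i. None of these has an assay of that name on the card. Of these 5, miR-378c shares the longest start with the 3′ arm, its first 20 bases, and is shown because its 3′ end differs.
hsa-miR-378c: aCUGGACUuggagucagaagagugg

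miR-422b and miR-422a are identical at 20 of 22 bases. The differences, from the miR-378a 3′ arm to miR-422a and counted from 1 at the 5′ end, are G10A and A12G, shown here in capitals.
hsa-miR-378a-3p: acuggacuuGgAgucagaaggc
hsa-miR-422a: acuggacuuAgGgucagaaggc
Both thus share their first 9 and their last 10 bases. A stem-loop primer for reverse transcription anneals to the last bases of a miRNA, where these are identical; how far each assay reads the other RNA was not tested.

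The hairpins differ in layout, with the mature RNAs in capitals.
MIR378A: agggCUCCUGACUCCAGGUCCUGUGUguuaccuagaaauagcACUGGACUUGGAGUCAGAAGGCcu
MIR422A: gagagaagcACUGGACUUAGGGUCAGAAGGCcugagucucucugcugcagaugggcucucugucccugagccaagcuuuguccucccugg
MIR378A is at chr5:149732825-149732890 on the plus strand, and PPARGC1B is the 1 gene of the RefSeq table whose span holds it. In the predicted fold, 18 base pairs join its 2 mature arms, which are 16 bases apart. MIR422A is at chr15:63870930-63871019 on the minus strand, within the span of 0 other genes in that table. Its mature RNA starts at base 10 of 90, on the 5′ side, whereas the related RNA of MIR378A starts at base 43 of 66, on the 3′ side.

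The readout is the threshold cycle (Ct), at which the PCR signal passes a fixed level; a later cycle means less template, and 1 cycle is a 2-fold difference if each cycle doubles the product. The RNA input was 500 ng and the run ended at cycle 40. RNU48, the small nucleolar RNA used as reference, crossed threshold at cycle 20.79 in vector cells and 21.21 in ANGPTL1 cells. A miRNA counted as detected below cycle 35, which held in both samples for 145 miRNAs, among them all 3 assays described here. Their median log2 ratio of ANGPTL1 over control cells was -0.01 relative to RNU48 and -0.43 without a reference.

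miR-378, the 5′ arm, had the earliest cycle of the 3 assays, 28.59 in vector cells and 29.46 in ANGPTL1 cells. Its cycle was 0.87 later in ANGPTL1 cells, of which 0.42 was shared with RNU48. Relative to RNU48 its log2 ratio was -0.44, or 1.36-fold lower in ANGPTL1 cells, and 34 of the other detected miRNAs had a lower ratio.

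miR-422b, the 3′ arm, stood at cycle 29.36 in vector cells and 32.59 in ANGPTL1 cells, 3.23 cycles later. It was thus close to miR-378 in the control and far from it in ANGPTL1 cells. Its delta Ct, the cycle minus that of RNU48, went from 8.57 to 11.38, a log2 ratio of -2.81 or 7.01-fold lower. In ANGPTL1 cells the level relative to RNU48 was 14.3% of that in the control. This was the second lowest ratio of the 145, after miR-486, and these 2 of 145 (1.38%) were the ones at least 4-fold lower.

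miR-422a was the scarcest by cycle, at 32.59 in vector cells and 34.18 in ANGPTL1 cells. Its cycle was 1.59 later, and in ANGPTL1 cells it lay 0.82 cycles from the detection limit. Relative to RNU48 the log2 ratio was -1.16, or 2.23-fold lower, the fifth lowest of the 145. In vector cells 157 miRNAs were detected and in ANGPTL1 cells 158, and those detected in 1 sample only have no rank here. All 3 assays crossed threshold later in ANGPTL1 cells, as did 115 of the 145 miRNAs (79.3%), and all 3 ratios were below 0, as were 73 of the 145 (50.3%). The 2-fold rule was passed by miR-422b and miR-422a and not by miR-378, beside 7 of the 145 (4.83%) on the lower side. Without a reference the same 2 assays passed it, beside 29 of the 145 (20.0%).

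**Figure D1:**
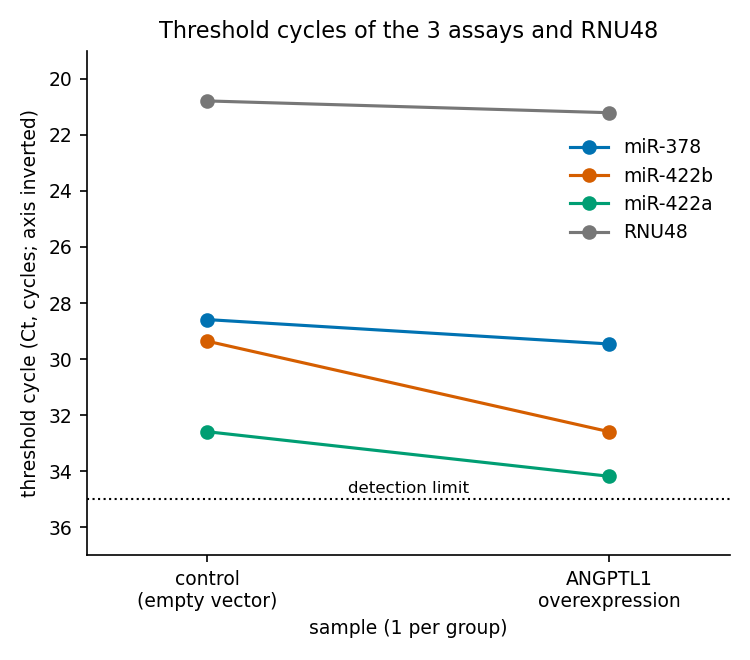
Threshold cycles (inverted axis, so higher means more template) of the 3 assays and of RNU48 in the control and the ANGPTL1 sample, 1 point per sample, with the detection limit of cycle 35 dotted. The line of miR-422b drops by 3.23 cycles, against 1.59 for miR-422a, 0.87 for miR-378 and 0.42 for RNU48.

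The arm difference, the cycle of miR-378 minus that of miR-422b in the same sample, needs no reference RNA. It was -0.77 cycles in vector cells and -3.13 in ANGPTL1 cells. The 5′ arm assay was therefore the earlier in both samples, by 1.71-fold and 8.75-fold if both assays amplify alike, which was not tested. A constant offset between the assays drops out of the change between samples. That change was 2.36 cycles and stands for a 5.13-fold lower ratio of the 3′ arm to the 5′ arm in the ANGPTL1 sample. Both arms come from 1 precursor, and their amounts did not move alike between these samples.

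Other hairpins give the scale for such a shift. A total of 25 others had both arms on the card by name, and in 5 of these both arms were detected in both samples. Their arm differences changed by 0.12 to 0.74 cycles, with a median of 0.21, and 0 of 5 (0%) passed 2-fold. In the hairpin of miR-17, from a growth-promoting polycistron, the arms were 6.66 cycles apart in vector cells and 6.87 in ANGPTL1 cells. The arms of miR-30a were 4.82 and 5.2 cycles apart, and those of miR-324 0.97 and 1.17. For miR-126 and miR-9 the names do not tell which assay reads which arm; their assays were 3.99 and 3.25 cycles apart for miR-126, and 4.41 and 4.29 for miR-9. miR-425 and miR-425-5p, a pair added after the data were seen, were 1.24 and 0.33 cycles apart, a change of 0.91. The change of 2.36 cycles between miR-378 and miR-422b exceeded that of each of these 6 pairs.

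**Figure D2:**
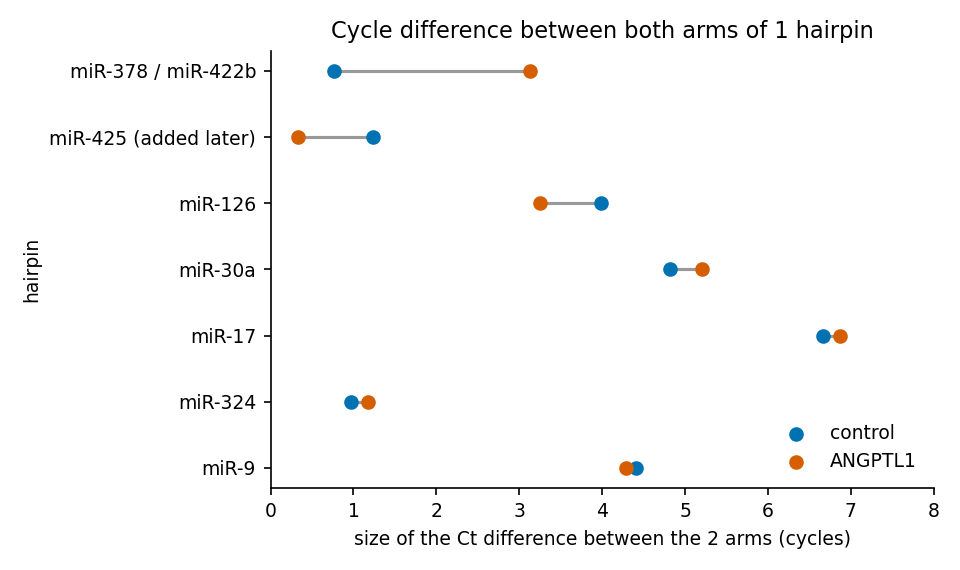
Size of the cycle difference between the assays of both arms in the control and ANGPTL1 samples, for hairpins with both arms below cycle 35 in both samples, ordered by the size of the change. The pair of miR-378 and miR-422b goes from 0.77 to 3.13 cycles, and the other pairs change by at most 0.91.

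The relatives miR-422b and miR-422a were both lower in ANGPTL1 cells and differed in size. miR-422a crossed threshold 3.23 cycles after miR-422b in the control and 1.59 cycles after it in ANGPTL1 cells. Their log2 ratios were 1.65 apart, a 3.14-fold difference between RNAs that share a seed. Among 16 other groups of miRNAs that share a number and differ by letter, each with 2 or more members below cycle 35 in both samples, 6 (37.5%) had log2 ratios that ranged over at least 2-fold. The widest were miR-34, with a range of 2.21 from miR-34a to miR-34c, let-7 with 1.97 over 7 members, and miR-146 with 1.31 between the NF-kappaB-linked miR-146a and miR-146b. The median range was 0.36. The gap between miR-422a and miR-422b was thus wider than most and narrower than 2 of the 16. Of these 2, let-7 ranges over 7 members, and miR-34c stood at cycle 34.46 in vector cells, near the detection limit. miR-422a was near that limit too, at cycle 34.18 in ANGPTL1 cells. Among the 14 other groups with 2 detected members, 1 (miR-34) ranged at least as widely, and their median range was 0.32.

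**Figure D3:**
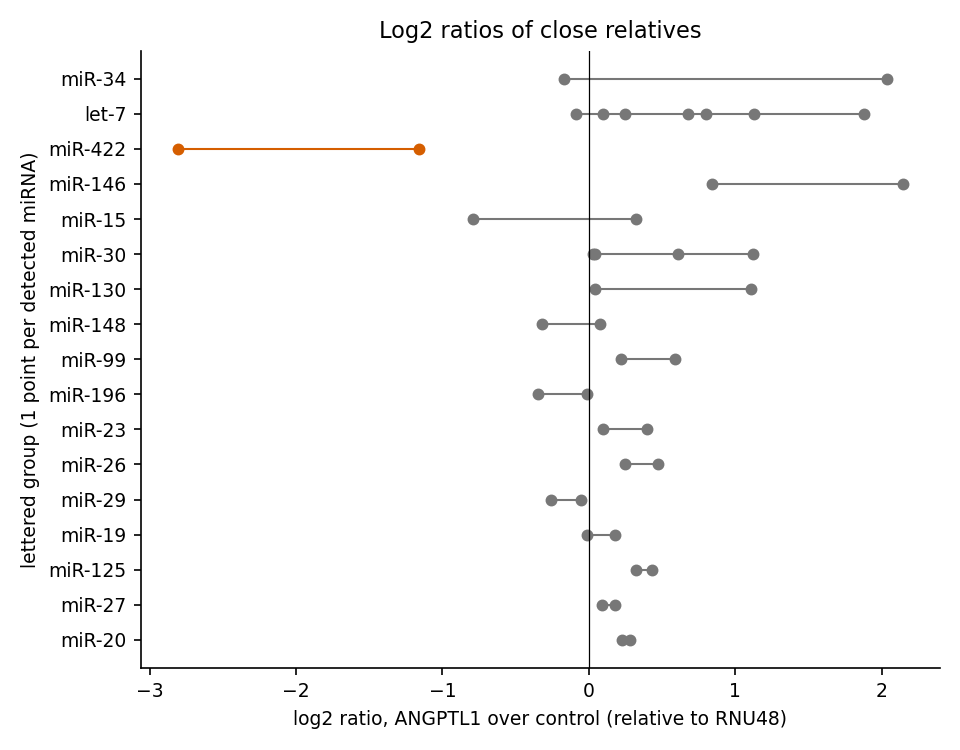
Log2 ratios relative to RNU48 of miRNAs that share a number and differ by letter, 1 point per miRNA detected in both samples, ordered by their range. miR-422a and miR-422b (coloured) are at -1.16 and -2.81, and miR-34 and let-7 range more widely.

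miR-378 and miR-422a, which share neither hairpin nor seed, kept the most even distance. They were 4 cycles apart in vector cells and 4.72 in ANGPTL1 cells, a change of 0.72. Over the 3 assays the log2 ratios ranged over 2.37, most of it between miR-422b and the others. The pair of 1 hairpin was thus the furthest apart in ratio, the pair of 1 seed came next, and miR-378 and miR-422a were the closest. These gaps all follow from the same 3 ratios, so they are not separate observations.

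Each assay was also set beside the other detected miRNAs within 1 cycle of its mean cycle. For miR-378, 29 others had a median log2 ratio of 0.09, and 5 of them were as low or lower. For miR-422b, 30 others had a median of -0.14 with 3 at least 2-fold lower, and 1 of them, miR-486, was as low. For miR-422a, 21 others ranged from -1.13 (miR-139) to 2.04 (miR-34c), and 0 were as low. miR-139 was at cycle 32.39 and 33.94, so miR-422a lay just beyond the edge of its neighbours.

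**Figure D4:**
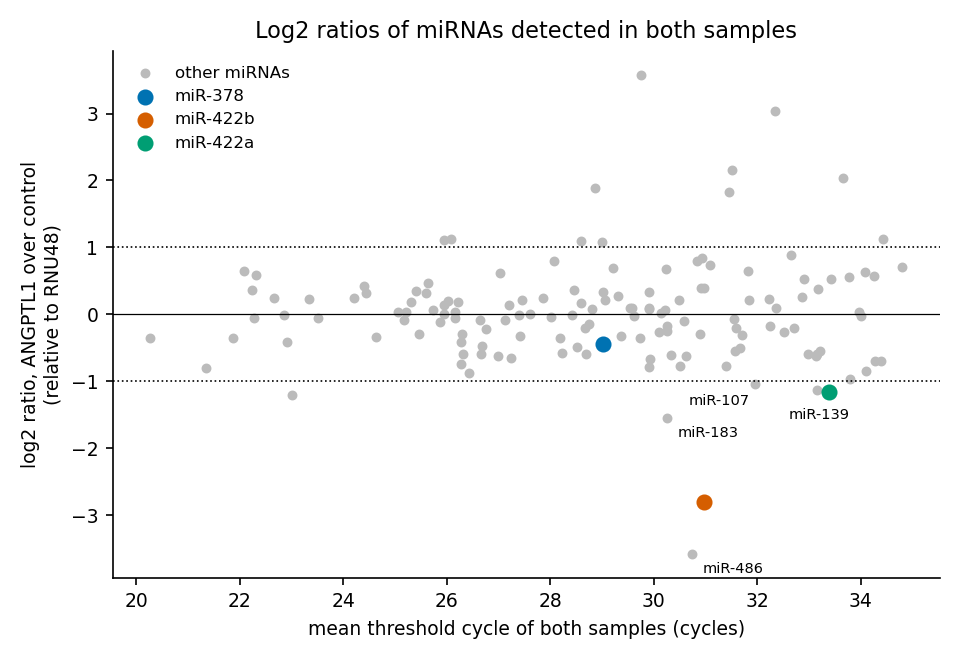
Log2 ratio of ANGPTL1 over control cells relative to RNU48 against the mean threshold cycle, 1 point per miRNA detected in both samples; dotted lines mark 2-fold. miR-422b at -2.81 stands apart with miR-486 at -3.58, miR-422a at -1.16 lies next to miR-139, and miR-378 at -0.44 lies among the other miRNAs.

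By distance between the pairs of cycles over the 2 samples, the miRNA nearest to miR-422b was miR-486, abundant in red blood cells and muscle, at cycle 28.75 and 32.75 and 0.63 cycles away. Next were miR-183, a sensory-organ miRNA, 1.34 cycles away with a log2 ratio of -1.55, and miR-101, a repressor of EZH2, 1.56 cycles away at -0.78. Nearest to miR-422a were miR-139 (0.31 cycles), the muscle miRNA miR-133b (0.50) and miR-579 (0.51), with log2 ratios of -1.13, -0.55 and -0.63. Nearest to miR-378 were miR-30e-3p (0.45), miR-18a (0.46) and miR-345 (0.47), with log2 ratios of -0.14, 0.21 and 0.08. With 2 samples this measure says only that the cycles were alike.

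Products of the miR-378a hairpin and miR-422a are known to be abundant in muscle, and miR-486 in muscle and red blood cells. Markers of these tissues were therefore read on the same card. Of 5 muscle miRNAs, 1 was detected in both samples, miR-133b at cycle 32.73 and 33.70, and 4 in neither: miR-206 and miR-208 stood at cycle 40 in both samples, and miR-1 and miR-133a stood at 40 in vector cells and at 35.35 and 38.04 in ANGPTL1 cells. All these lay past the detection limit, so no direction was read from them. The cycle of miR-133b was later with ANGPTL1, as held for 115 of the 145 detected miRNAs (79.3%), the 3 assays included. Of the red blood cell markers, miR-451 was later than the limit in both samples, at 38.50 and 36.83, so miR-486 was the 1 marker detected. Of 3 white blood cell markers on the card, 1 was detected, miR-142-3p in vector cells at 34.51, and the others were later than the limit in both samples. Both samples came from cultured CL1-5 cells, so these markers are read as miRNAs of that line and not as a share of other cells.

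Among 14 miRNAs known for a role in lipid, glucose or mitochondrial metabolism, 8 were detected in both samples. Their median log2 ratio was 0.08 beside -0.01 for all 145. Of these 8, 1 was at least 2-fold lower and 0 at least 2-fold higher, beside 7 (4.83%) and 11 (7.59%) of the 145. miR-210, which represses the iron-sulfur assembly factor ISCU, was at -0.29, miR-26a at 0.25 and miR-365 at 0.14. Like miR-378, 3 of the 14 lie in introns of metabolic genes. miR-107, in a pantothenate kinase gene, was the 1 that passed 2-fold, at cycle 31.24 and 32.70 with a log2 ratio of -1.04. miR-103, which differs from it by a base near the 3′ end and lies in sister genes, was at 0.06. miR-33, in the intron of the cholesterol regulator SREBF2, was at cycle 33.79 in vector cells and 40 in ANGPTL1 cells. The other 7 of the 8 lay within 2-fold, as did 127 of the 145 (87.6%), so the metabolic miRNAs did not stand apart by this count. It leaves out 2 of the 14 detected in vector cells only (miR-33 and miR-375), 1 detected in ANGPTL1 cells only (miR-193b) and 3 detected in neither.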

How the data were processed

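Mature miRNAs were measured by reverse-transcription PCR with the TaqMan card format (Human MicroRNA Panel, version 1.0), per the labels' protocols. The deposited tables hold the average Ct and the delta Ct against RNU48 of each assay, per the file headers, treated here as scores without a count behind them. The authors' deposited fold change is a ratio of ANGPTL1 over control cells. How many wells were averaged, and with which threshold and software, is not given in the sources used here.

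Log2 ratios are control delta Ct minus ANGPTL1 delta Ct, with Python 3.11.15 and pandas 2.3.3. Deposited delta Ct differed from recomputed values by at most 0.01. Arm and relative differences used Ct. Arms were paired by name (5p with 3p, or a name on 2 assay numbers). Hairpins were folded with ViennaRNA 2.7.2. The scripts were checked on simulated cycles. The members, lists and rules were chosen with earlier results of these data known. Named were the members, RNU48, the 3 nearest miRNAs by cycle for each, the 3 widest lettered groups, all detected arm pairs (named after their values were seen) and up to 4 further miRNAs per list. Alternatives were the reference, the detection limit, the fold rule and amplification per cycle.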

Additional observations from a re-analysis of the deposited data

How the results depend on the processing

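The log2 ratios of the 3 assays kept their sign and their side of 2-fold under every alternative that gave a value. Several of these could not move a ratio. A detection limit only keeps or drops an assay, and the authors' fold change and the recomputed delta Ct rest on the same cycles. A changed amplification rescales a ratio and cannot change its sign. Without a reference the log2 ratios were -0.87 (miR-378), -1.59 (miR-422a) and -3.23 (miR-422b), and with an amplification of 1.9 times per cycle -0.41, -1.07 and -2.60. The ratio of the 3′ arm to the 5′ arm was then lower by 2.19 on the log2 scale. Below cycle 32, miR-422a and miR-422b gave no value, and so neither did the arm difference nor the other comparisons among the 3 assays. The number of miRNAs at least 2-fold lower, 7 beside 11 higher, was 29 beside 6 without a reference, 31 beside 6 with the median Ct as reference, 2 below cycle 32, 11 below cycle 38, 28 at 1.5-fold and 2 at 4-fold. At 1.5-fold 1 of the 5 other hairpins passed, and at 4-fold 1 of the 16 lettered groups. All these shifts follow from the setting itself. No paired analysis was possible because there was 1 sample of each kind, and no replicate could be left out. Late cycles limit miR-422a most.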

Other observations

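Hairpins with an arm later than the detection limit were left out of the comparison of arms. Their cycle differences changed by 0 (miR-369, at cycle 40 throughout) to 6.9 cycles (miR-432). With values past the limit, these were not read as shifts. In the hairpin of miR-30e, the 5′ arm stood at cycle 34.04 in vector cells and 35.20 in ANGPTL1 cells, and the 3′ arm at 28.47 and 29.03. The assay of miR-189, an arm of a miR-24 hairpin under an older name, stood at cycle 40 in vector cells and 35.07 in ANGPTL1 cells, while miR-24 stood at 22.22 and 22.27. The hairpins named here were chosen after their values were seen.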
